A study of Homo sapiens with 36 samples.

Results

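The 7 genes described here encode the receptors that start cell death from the cell surface and the complex they assemble inside it. They are FAS, TNFRSF10A, TNFRSF10B, TNFRSF10D, FADD, CASP8 and CFLAR, and they were taken by symbol. All 7 were among the 15891 genes of the deposited table, and all 7 passed the filter on low values in both kinds of RNA. The values come from HCT116, a human colorectal carcinoma cell line, treated with 10 µM 5-fluorouracil (5-FU) for 48 h. 5-FU is a pyrimidine analogue that blocks thymidylate synthesis and is incorporated into RNA and DNA. Cells were collected before the drug (D0), on D1 and D2 within the 48 h course, and on D7, D14 and D16 after it. No untreated culture of a later day was analysed here, so drug and time in culture cannot be told apart.

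At each day the labels give a cytoplasmic RNA library and a library of a heavy polysomal pool, the gradient fractions in which mRNAs carried more than 3 ribosomes. Both were poly(A)-selected. There were 12 groups of 3 libraries, lettered A, B and C, and 36 libraries in all. The labels call the letters batches and do not say whether they were separate cultures, so p-values measure the spread between these libraries, which may be technical.

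Death receptors are trimeric membrane proteins with a death domain in the cytosol. FAS binds FAS ligand, and TNFRSF10A and TNFRSF10B bind TRAIL, the product of TNFSF10. A bound receptor recruits the adapter FADD, which in turn recruits procaspase-8, the product of CASP8. The procaspase molecules activate each other by proximity and then cut effector caspases and BID. CFLAR encodes c-FLIP, a relative of caspase-8 without protease activity that takes its place in the complex. TNFRSF10D is a decoy TRAIL receptor with a truncated death domain. TRAIL receptors have long been studied in colorectal cancer cells under 5-FU.

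RefSeq promoter windows (GRCh38.p14, 250 bases before to 50 after a transcript start) were matched for 4 of the 7 genes, FAS with 3 windows, FADD with 1, CASP8 with 3 and CFLAR with 4. From 1 window each, a stretch before the start is shown for FAS, the gene with the largest rise, for CASP8, which fell on D2, and for CFLAR, which rose. Each is on the plus strand, and each holds no exon of a coding transcript in GENCODE 29. Capitals mark matches on either strand to the motifs named below, and other motifs were not marked.
FAS, chr10:88991181-88991430: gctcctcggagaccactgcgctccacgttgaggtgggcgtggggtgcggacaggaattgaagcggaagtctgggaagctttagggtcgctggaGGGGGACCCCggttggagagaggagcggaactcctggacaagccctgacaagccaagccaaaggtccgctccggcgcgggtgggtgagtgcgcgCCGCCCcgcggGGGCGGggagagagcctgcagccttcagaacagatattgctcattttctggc
CASP8, chr2:201257785-201257979: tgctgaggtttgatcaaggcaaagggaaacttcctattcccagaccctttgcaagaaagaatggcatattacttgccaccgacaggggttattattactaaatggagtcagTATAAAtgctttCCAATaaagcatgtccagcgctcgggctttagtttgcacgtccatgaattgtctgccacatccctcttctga
CFLAR, chr2:201140025-201140274: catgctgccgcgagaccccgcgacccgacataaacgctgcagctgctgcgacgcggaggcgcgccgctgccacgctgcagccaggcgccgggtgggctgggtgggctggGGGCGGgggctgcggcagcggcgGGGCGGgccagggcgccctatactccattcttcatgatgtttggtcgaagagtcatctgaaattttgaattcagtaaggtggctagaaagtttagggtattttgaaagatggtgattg
The FAS stretch lies in an intron of all 4 coding FAS transcripts. In order, its capitals are 1 NF-kB site (chr10:88991274-88991283) and 2 Sp1 motifs (GGGCGG or its reverse complement). The other FAS windows, which are not printed, hold 1 Sp1 motif each and no NF-kB site, and 1 of them holds an AP-1 motif. The CASP8 stretch holds a TATAAA motif and then a CCAAT motif, which do not overlap, and it is intronic in 7 of 15 coding transcripts. The CFLAR stretch holds 2 Sp1 motifs and is intronic in 13 of 18. The motifs are common. Of 35116 promoter windows of 300 bases, 44.95% hold the Sp1 motif, 34.61% the CCAAT motif, 11.53% the TATAAA motif, 11.27% the NF-kB site and 7.709% the AP-1 motif (TGANTCA). A match describes the letters in the window and is not a binding site.

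Values are normalised counts, and differences are on the log2(value + 1) scale ± standard error (SE) from limma, with n = 3 libraries in each group. Counts were divided by a size factor of their library, so a difference between days or fractions is relative to other genes, not an amount. A gene was called, and is said to have risen or fallen, at an adjusted p under 0.05 over all genes tested. In bulk RNA, a change in the number of cells that hold a transcript and a change in its amount per cell cannot be told apart. Counts are per gene, so isoforms of FAS, CASP8 and CFLAR, which are known to differ in function, were not separated.

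Summed over the listed genes, a cytoplasmic library held 41.03 to 103.6 megareads (median 48.04, with 55.16 the next highest) and a heavy pool library 46.15 to 55.68. Cytoplasmic libraries scattered more widely. Over all genes, their SD from their group's mean was 0.24 to 0.66 (log2), against 0.16 to 0.25 for the heavy pool, so standard errors were smaller there. On D14 and D16 fewer genes differed between the heavy pool and the cytoplasm. Only 1.68% and 1.353% of genes differed over 2-fold between their group means, against 18.22% to 33.81% on D0, D1, D2 and D7. Mitochondrial transcripts still separated the 2 fractions on these days, taking 6.07% to 9.80% of cytoplasmic reads and 0.18% to 1.31% of reads from the heavy pool. Of the epithelial and colorectal markers, 7 of 10 were listed, with EPCAM at 6163 in its lowest library. KRT20, also listed, was low at 11.59 to 264.6, and VIL1, CEACAM5 and LGR5 were not listed. Of the markers of other lineages, 3 of 17 were listed (ITGAM, COL1A1 and HBA1), with a summed value of 248.4 to 1393. In the cytoplasm that sum was 430.7 to 458.2 on D0, 1263 to 1393 on D1, 799.4 to 982.5 on D2 and 378.3 to 481.7 on D7. In the heavy pool it was 532.5 to 810.4, 1154 to 1237, 836 to 1008 and 248.4 to 348.4 on these days. The summed epithelial markers were at 2.646e+05 to 2.837e+05 in the cytoplasm on D0 and 6.219e+05 to 7.12e+05 on D1. Both cytoplasmic sums lay above their D0 range on D1, a day when receptors rose, and their part in that was not tested.

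FAS (ENSG00000026103, chr10:88990582-89015785, plus strand) rose in the cytoplasm on D1, D2 and D7 and in the heavy pool on all 5 later days. Its cytoplasmic values in libraries A, B and C were 351, 370 and 273 on D0, 1906, 859 and 1082 on D1, 1844, 1306 and 2162 on D2, and 1488, 1358 and 1106 on D7. On D14 they were 566, 205 and 717, and on D16 they were 459, 176 and 469. All libraries of D1, D2 and D7 lay above all those of D0, while D14 and D16 overlapped D0 with library B lowest on both days. The cytoplasmic difference from D0 was 1.88 ± 0.43 on D1 (adjusted p = 0.00633), 2.40 ± 0.43 on D2 (adjusted p = 0.000497) and 1.99 ± 0.43 on D7 (adjusted p = 0.00246). It was 0.41 ± 0.43 on D14 and 0.03 ± 0.43 on D16, and neither passed. Leaving out letter A or letter C ended the D1 call (adjusted p = 0.0880 and 0.0979). Among all genes tested in the cytoplasm, 1.95% had a larger change than FAS on D2.

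Heavy pool values of FAS were 160, 186 and 196 on D0, 1577, 1504 and 1392 on D1, and 2366, 2028 and 1564 on D2. They were 760, 936 and 676 on D7, 411, 483 and 500 on D14, and 413, 418 and 505 on D16. Every later library lay above every D0 library. The difference from D0 was 3.04 ± 0.14 on D1 (adjusted p = 1.64e-13) and 3.44 ± 0.14 on D2 (adjusted p = 4.20e-15), a 10.8-fold rise. It was 2.12 ± 0.14 on D7, 1.36 ± 0.14 on D14 and 1.296 ± 0.144 on D16 (adjusted p = 3.88e-08). On D1, 0.233% of genes had a larger change than FAS in this pool. In the order of days by mean the libraries of D2 and D1 overlapped, as did those of D14 and D16, and the other neighbours (D1 and D7, D7 and D14, D16 and D0) did not.

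Exons of ACTA2, the smooth muscle actin gene on the opposite strand, overlap 380 bp (8.9%) of the FAS exons. ACTA2 rose beside FAS, from a mean of 155.8 on D0 to 1417 on D2 in the cytoplasm and from 204.2 to 1426 in the heavy pool. The kit marks strand, but the sources do not state whether the counting used strand. The part of ACTA2 reads in the FAS values was not tested.

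**Figure D1:**
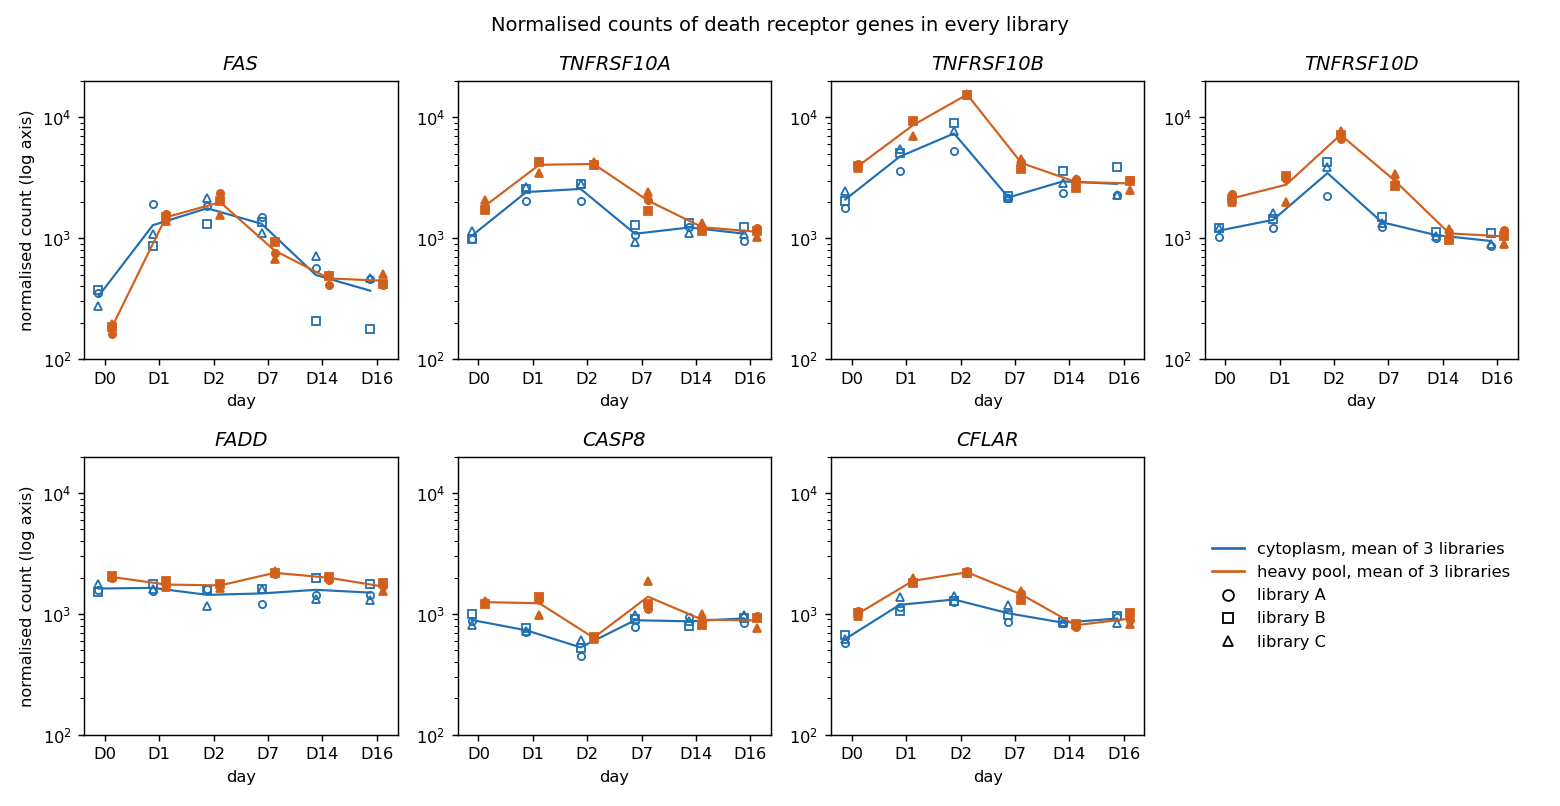
Normalised counts of the 7 genes by day (log axis), with open symbols and the blue line for the cytoplasm and filled symbols and the orange line for the heavy pool; symbols are single libraries and lines join means of 3. The means of FAS and the 3 TRAIL receptors were highest on D2 in both fractions. Libraries of D1 and D2 overlapped for FAS and TNFRSF10A in both fractions and for TNFRSF10B in the cytoplasm. CASP8 had its lowest values on D2, and FADD stayed between 1154 and 2253 in every library.

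TNFRSF10A (ENSG00000104689, chr8:23190452-23225126, minus strand) and TNFRSF10B (ENSG00000120889, chr8:23020133-23069179, minus strand), the TRAIL receptors that signal death, rose on D1 and D2 in both fractions. TNFRSF10A was at 995, 995 and 1159 in the cytoplasm on D0, 2029, 2551 and 2656 on D1, and 2050, 2805 and 2826 on D2. Its libraries were at 1067, 1277 and 925 on D7, at 1231, 1342 and 1111 on D14, and at 950, 1234 and 1092 on D16. The 6 libraries of D1 and D2 stood above the others, which overlapped each other from D14 down to D0. The difference from D0 was 1.19 ± 0.19 on D1 (adjusted p = 0.000392) and 1.27 ± 0.19 on D2 (adjusted p = 9.77e-05), and 0.04 to 0.23 on the later days, none of which passed.

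TNFRSF10A had higher normalised values in the heavy pool than in the cytoplasm until D7, and its heavy pool values fell below their D0 level afterwards. In the heavy pool they were 1776, 1704 and 2071 on D0, 4373, 4310 and 3478 on D1, 4052, 4050 and 4254 on D2 and 2055, 1675 and 2410 on D7. They were 1205, 1151 and 1342 on D14 and 1207, 1159 and 1028 on D16, all below the lowest D0 library. The rise was 1.13 ± 0.12 on D1 (adjusted p = 9.77e-08) and 1.16 ± 0.12 on D2, and the fall was -0.58 ± 0.12 on D14 (adjusted p = 0.000163) and -0.71 ± 0.12 on D16 (adjusted p = 1.61e-05). D7 did not pass (0.13 ± 0.12).

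TNFRSF10B showed the same course with its highest values on D2. In the cytoplasm it was at 1773, 2043 and 2467 on D0, 3614, 5094 and 5490 on D1, and 5307, 9029 and 7772 on D2. It returned to 2160, 2234 and 2135 on D7 and stood at 2346, 3627 and 2891 on D14 and 2259, 3903 and 2298 on D16. The rise was 1.17 ± 0.25 on D1 (adjusted p = 0.00417) and 1.79 ± 0.25 on D2 (adjusted p = 4.84e-05), with all libraries of both days above those of D0. The D1 call was lost without letter C (adjusted p = 0.102) and with total-sum scaling (adjusted p = 0.0669). The differences on D14 (0.49 ± 0.25) and D16 (0.39 ± 0.25) did not pass, and library B was the highest on both days.

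TNFRSF10B in the heavy pool went from 4145, 3965 and 3809 on D0 to 9411, 9311 and 7066 on D1 and to 15321, 15355 and 15749 on D2. It was back at 4297, 3747 and 4530 on D7, and lower at 3066, 2615 and 3090 on D14 and 3061, 2956 and 2511 on D16. The libraries of D2 lay close together and above every library of D1, and those of D1 lay above every library of the other days. The rise was 1.10 ± 0.11 on D1 and 1.96 ± 0.11 on D2 (adjusted p = 4.79e-13), where 2.81% of genes had a larger change. The fall was -0.45 ± 0.11 on D14 (adjusted p = 0.000906) and -0.49 ± 0.11 on D16 (adjusted p = 0.000368). With total-sum scaling in place of the authors' size factors, these late falls did not pass (-0.13 on D14 and -0.06 on D16).

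TNFRSF10D (ENSG00000173530, chr8:23135588-23164030, minus strand), the decoy, rose on D2 and was not called on D1. Its cytoplasmic values were 1024, 1225 and 1216 on D0, 1207, 1446 and 1603 on D1, and 2248, 4252 and 3883 on D2. They were 1236, 1506 and 1328 on D7, 1003, 1131 and 1049 on D14, and 859, 1097 and 895 on D16. The D1 libraries overlapped those of D0 (0.29 ± 0.22, adjusted p = 0.362), and the D2 libraries lay above all others (1.53 ± 0.22, adjusted p = 5.53e-05). The step from D1 to D2 was itself a rise of 1.24 ± 0.22 (adjusted p = 0.00191), where TNFRSF10A moved by 0.08 ± 0.19 and TNFRSF10B by 0.63 ± 0.25 (adjusted p = 0.138, or 0.0355 with the letter as a block).

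TNFRSF10D had its highest values on D2 in the heavy pool too. It was at 2305, 2112 and 1991 on D0, 3096, 3249 and 1977 on D1, 6599, 7211 and 7732 on D2 and 2883, 2687 and 3405 on D7. It was at 1126, 976 and 1191 on D14 and 1176, 1037 and 895 on D16, below every D0 library. On D1 library C stood at the D0 level and the difference missed the threshold (0.35 ± 0.15, adjusted p = 0.0570). This D1 difference passed at 0.52 without letter C (adjusted p = 0.000843) and at 0.54 with total-sum scaling (adjusted p = 0.00324). The rise was 1.75 ± 0.15 on D2 (adjusted p = 4.93e-10) and 0.48 ± 0.15 on D7 (adjusted p = 0.00651). The fall was -0.96 ± 0.15 on D14 and -1.05 ± 0.15 on D16 (adjusted p = 1.13e-06), the largest late fall of the 7 genes.

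Antisense or neighbouring genes overlap the receptor genes too. AC100861.1 covers 266 bp (9%) of the TNFRSF10A exons and RHOBTB2 covers 67 bp (1.3%) of those of TNFRSF10B, both on the opposite strand. The mean of RHOBTB2 went from 859.7 on D0 to 876.9 on D2 in the cytoplasm and from 1579 to 1327 in the heavy pool. AC100861.1 had a mean value of 849.1 over all libraries. The part of reads of either gene in the receptor values was not tested.

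FADD (ENSG00000168040, chr11:70203163-70207390, plus strand), the adapter, varied little. Its cytoplasmic values were 1585, 1531 and 1753 on D0, 1536, 1780 and 1616 on D1, and 1600, 1564 and 1154 on D2. They were 1213, 1608 and 1614 on D7, 1432, 1997 and 1323 on D14, and 1439, 1757 and 1306 on D16. All neighbouring days overlapped, the differences from D0 were between -0.19 and 0.02 (SE 0.20), and no day passed (F test over all days, adjusted p = 0.895). In the heavy pool it was at 1995, 2059 and 2025 on D0, 1705, 1872 and 1676 on D1, 1753, 1768 and 1647 on D2, and 2131, 2184 and 2253 on D7. It was at 1920, 2020 and 2040 on D14 and 1700, 1797 and 1556 on D16. D1, D2 and D16 lay below D0 by small amounts that passed, -0.21 ± 0.08 on D1 (adjusted p = 0.0389), -0.23 ± 0.08 on D2 (adjusted p = 0.0164) and -0.27 ± 0.08 on D16 (adjusted p = 0.00588). With total-sum scaling the D2 and D16 differences turned to 0.15 and 0.16 and the D1 difference was -0.02 (adjusted p = 0.895), beside all-gene medians of 0.35, 0.44 and 0.13. Leaving out letter A, B or C each ended the calls of D1 and D2, and leaving out A or C ended that of D16. AP000879.1 on the opposite strand overlaps 54.9% of the FADD exon length and had a mean value of 22.83.

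CASP8 (ENSG00000064012, chr2:201233443-201287711, plus strand), the initiator protease, fell on D2 in both fractions while the receptors rose. Its cytoplasmic values were 875, 995 and 804 on D0, 707, 765 and 724 on D1, and 450, 527 and 610 on D2. They were 773, 902 and 984 on D7, 942, 789 and 876 on D14, and 849, 929 and 980 on D16. The libraries of D1 and of D2 lay below those of D0, and the later days overlapped D0. The D2 difference was -0.76 ± 0.18 (adjusted p = 0.00473), the D1 difference of -0.28 ± 0.18 did not pass, and the later days were within 0.05 of D0. Leaving out letter A or letter B ended the D2 call (adjusted p = 0.0652 and 0.0810).

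CASP8 in the heavy pool was at 1256, 1215 and 1285 on D0, 1313, 1378 and 989 on D1, and 637, 648 and 621 on D2. It was at 1104, 1199 and 1865 on D7, 878, 807 and 998 on D14, and 966, 930 and 760 on D16. The D2 libraries were the lowest of all and close to each other, at -0.98 ± 0.15 (adjusted p = 7.85e-06), a level of 0.508 of D0. D1 and D7 did not pass (-0.04 and 0.11 ± 0.15), and the gene was lower on D14 (-0.49 ± 0.15, adjusted p = 0.00715) and D16 (-0.51 ± 0.15, adjusted p = 0.00544). With total-sum scaling these late differences were -0.17 and -0.08 and did not pass, while D7 was called higher (0.40, adjusted p = 0.0184). Leaving out letter A or letter B also ended the D14 call (adjusted p = 0.0547 and 0.0573).

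CFLAR (ENSG00000003402, chr2:201116104-201176687, plus strand), the inhibitor at the receptor complex, rose with the receptors. Its cytoplasmic values were 575, 666 and 623 on D0, 1136, 1052 and 1382 on D1, and 1247, 1291 and 1411 on D2. They were 856, 983 and 1197 on D7, 835, 856 and 849 on D14, and 952, 962 and 835 on D16. Every later library lay above every D0 library. The rise was 0.93 ± 0.18 on D1 (adjusted p = 0.00158), 1.08 ± 0.18 on D2 (adjusted p = 0.000211) and 0.69 ± 0.18 on D7 (adjusted p = 0.00703). On D14 it was 0.45 ± 0.18 (adjusted p = 0.105) and on D16 it was 0.56 ± 0.18 (adjusted p = 0.0369), a call that was lost without cytoplasmic library D16 B (adjusted p = 0.0951) and without any of the letters. Without letter C the calls of D1 and D7 were lost as well (adjusted p = 0.106 and 0.163). Total-sum scaling ended the calls of D1 (0.68, adjusted p = 0.0974), D7 (0.37, adjusted p = 0.292) and D16 (0.73, adjusted p = 0.0861).

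The heavy pool placed CFLAR at 1050, 1017 and 964 on D0, 1848, 1789 and 1995 on D1, 2265, 2200 and 2174 on D2 and 1489, 1301 and 1553 on D7. On D14 it was at 785, 822 and 815 and on D16 at 888, 1026 and 833. The days from D0 to D7 did not overlap each other. The rise was 0.89 ± 0.10 on D1, 1.13 ± 0.10 on D2 (adjusted p = 5.24e-10) and 0.52 ± 0.10 on D7 (adjusted p = 6.21e-05). On D14 it was lower than D0 (-0.32 ± 0.10, adjusted p = 0.00441), and D16 did not pass (-0.15 ± 0.10). With total-sum scaling the D14 difference was -0.00 and the D16 difference was 0.28, beside all-gene medians of 0.30 and 0.44, and without letter A the D14 call was lost (adjusted p = 0.102).

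**Figure D2:**
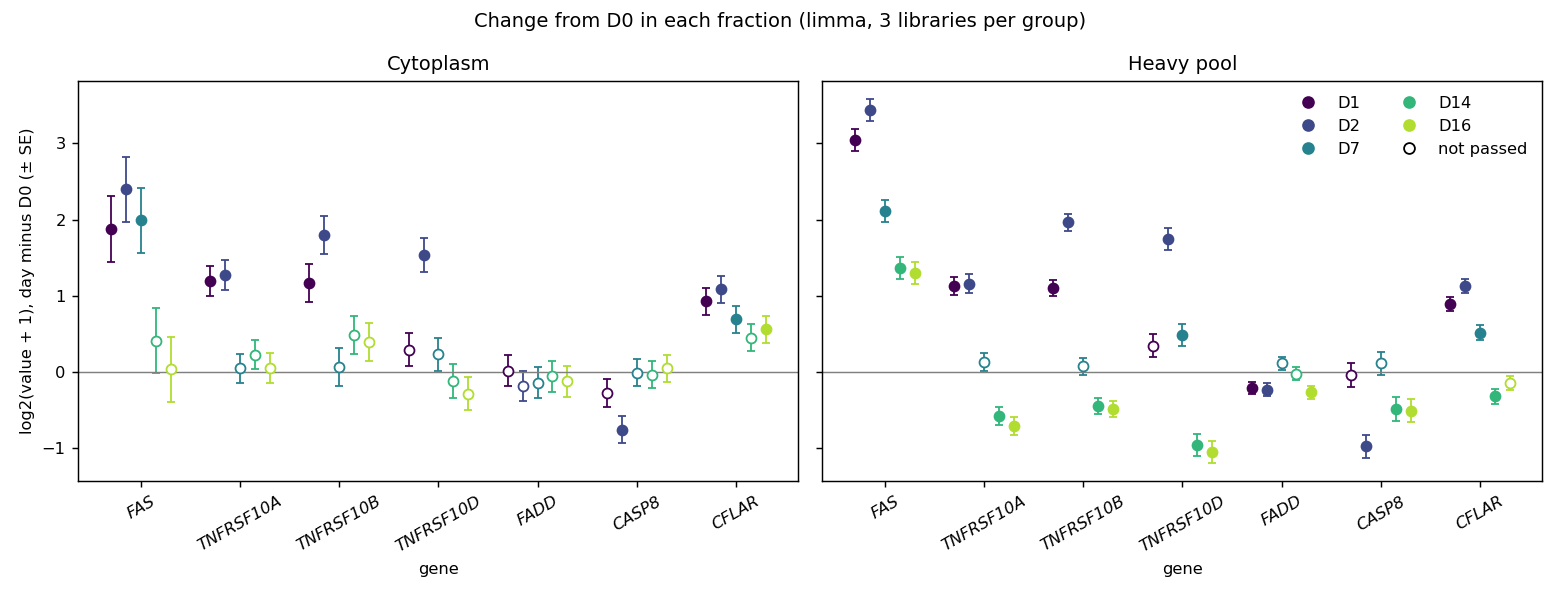
Difference of each later day from D0 on the log2(value + 1) scale (y axis, ± SE, 3 libraries per group) for each gene (x axis), with filled points called and open points not passed. Points of D1 and D2 are high for FAS, TNFRSF10A, TNFRSF10B and CFLAR in both panels. TNFRSF10D is high on D2 and did not pass on D1 in either panel. In the heavy pool the points of D14 and D16 lie below 0 for TNFRSF10A, TNFRSF10B and TNFRSF10D and above 0 for FAS.

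Counted over the 7 genes in the cytoplasm, 4 were higher on D1, where 10.9% of all genes were, and none was lower. On D2, 5 were higher and 1 lower, beside 14.2% and 10.6% of all genes. On D7, 2 were higher (18.3% of all genes), on D14 none was called by limma (12.8% of all genes changed), with 1 at an unadjusted p under 0.05 (CFLAR), and on D16 only CFLAR was higher (9.47%). The median difference of the 7 was 0.93 on D1 and 1.27 on D2, beside all-gene medians of -0.01 and -0.00. With total-sum scaling the higher genes among all called went from 60.49% to 46.07% on D1, 53.85% to 36.19% on D7, 60.54% to 77.50% on D14 and 56.60% to 72.80% on D16.

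In the heavy pool the share of all genes called was larger. On D1, 4 were higher and 1 lower, beside 20.1% and 26.9% of all genes, and on D2, 5 were higher and 2 lower, beside 30.4% and 34.5%. On D7, 3 were higher (27%). On D14, 1 was higher and 5 lower, beside 34.4% and 37.6%, and on D16 again 1 was higher and 5 lower, beside 36.2% and 36.6%. The median of the 7 was 1.16 on D2 and -0.45 on D14, beside all-gene medians of -0.03 and -0.02. The days share the D0 libraries, so these counts are not independent of each other. With total-sum scaling the higher genes among all called in this pool went from 42.55% to 49.70% over the 5 days to 64.55% to 71.67%. The 7 genes then counted 7 higher and 0 lower on D7, and 2 higher and 2 lower on both D14 and D16.

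Between D1 and D2 in the cytoplasm, the rise of TNFRSF10D was the only change of the 7 genes called, where 3.59% of all genes rose, and it was lost without letter B or letter C. From D2 to D7 there, TNFRSF10A (-1.23 ± 0.19), TNFRSF10B (-1.73 ± 0.25) and TNFRSF10D (-1.30 ± 0.22) fell and CASP8 rose (0.75 ± 0.18, adjusted p = 0.00824), while 11.8% of all genes fell and 9.48% rose. The CASP8 rise was lost with only the compared groups in the fit (adjusted p = 0.0924), with total-sum scaling (0.54, adjusted p = 0.18) and without letter B or C (adjusted p = 0.0689 and 0.140). Without letter C the falls of TNFRSF10A and TNFRSF10D were lost too (adjusted p = 0.0795 and 0.0859). FAS differed by -0.41 ± 0.43 at that step, which did not pass, and fell from D7 to D14 (-1.58 ± 0.43, adjusted p = 0.0107), where 19.1% of all genes fell. Leaving out cytoplasmic library D14 B ended that call (-1.04, adjusted p = 0.0528), as did leaving out letter A (-1.67, adjusted p = 0.0673). Total-sum scaling ended it too (-1.11, adjusted p = 0.0720), and with that scaling TNFRSF10B rose from D7 to D14 (0.89, adjusted p = 0.0383). From D14 to D16 none of the 7 was called by limma, nor was any of the 15889 genes tested (0%), and none of the 7 had an unadjusted p under 0.05.

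In the heavy pool, 4 genes rose from D1 to D2 (26.5% of all genes), namely TNFRSF10D (1.403 ± 0.146), TNFRSF10B (0.86 ± 0.11), FAS (0.39 ± 0.14) and CFLAR (0.24 ± 0.10), and CASP8 fell (-0.93 ± 0.15, with 24.8% of all genes). The rises of FAS and CFLAR at this step were lost without letter A or letter B. From D2 to D7 all 7 were called, 5 lower (28.3%) and 2 higher (28.7%). TNFRSF10B fell by 1.89 ± 0.11, FAS by 1.32 ± 0.14, and CASP8 rose by 1.09 ± 0.15 and FADD by 0.35 ± 0.08. From D7 to D14 all but FADD fell (28.9% of all genes did), TNFRSF10D by 1.44 ± 0.15 and CFLAR by 0.84 ± 0.10. From D14 to D16 only FADD was called (-0.24 ± 0.08, adjusted p = 0.0413, 10.2% of all genes lower), and that call was lost without any of the letters.

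The heavy pool was then set against the cytoplasm of the same day, to ask how strongly each mRNA was found on polysomes. Before the drug, TNFRSF10A (0.82 ± 0.16), TNFRSF10B (0.94 ± 0.20), TNFRSF10D (0.89 ± 0.19), CASP8 (0.49 ± 0.17) and CFLAR (0.70 ± 0.13) were higher in the heavy pool, where 26.7% of all genes were. FAS was lower there (-0.87 ± 0.34, adjusted p = 0.0364, 19.1% of all genes), with 160 to 196 against 273 to 370, and leaving out letter A or letter C ended this call (adjusted p = 0.228 and 0.0754), as did total-sum scaling (adjusted p = 0.0557). The CASP8 call was lost with total-sum scaling (adjusted p = 0.0819) and without letter A or C (adjusted p = 0.0932 and 0.0788). FADD missed the threshold (0.32 ± 0.15, adjusted p = 0.0716, or 0.0499 with the letter as a block). On D1, 5 genes were higher (31.3% of all genes), on D2, 4 (23.6%) and on D7, 6 (30.2%), and none was lower. Without letter A, 3 were higher on D2 and 4 on D7. With only the compared groups in the fit 5 were higher on D7, and with total-sum scaling 6 were higher on D1 and 6 on D2. FAS was the gene not called on D7 (-0.74 ± 0.34, adjusted p = 0.0624). It was lower there with only the compared groups in the fit (adjusted p = 0.0142), without letter B (-0.84, adjusted p = 0.0113) and without cytoplasmic library D14 B or D16 B (adjusted p = 0.0228 and 0.0327). On D1 and D2 FAS was at 0.30 and 0.18 ± 0.34.

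On D14 and D16 none of the 7 genes was called between the fractions by limma, and 1.23% and 0.85% of all genes were. At an unadjusted p under 0.05 there was 1 (FADD) on D14 and 0 on D16. The 7 differences lay between -0.07 and 0.35 on D14 and between -0.06 and 0.40 on D16, and on D14 that of FADD (0.35 ± 0.15) was the largest. None of the alternatives called a member on these days.

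**Figure D3:**
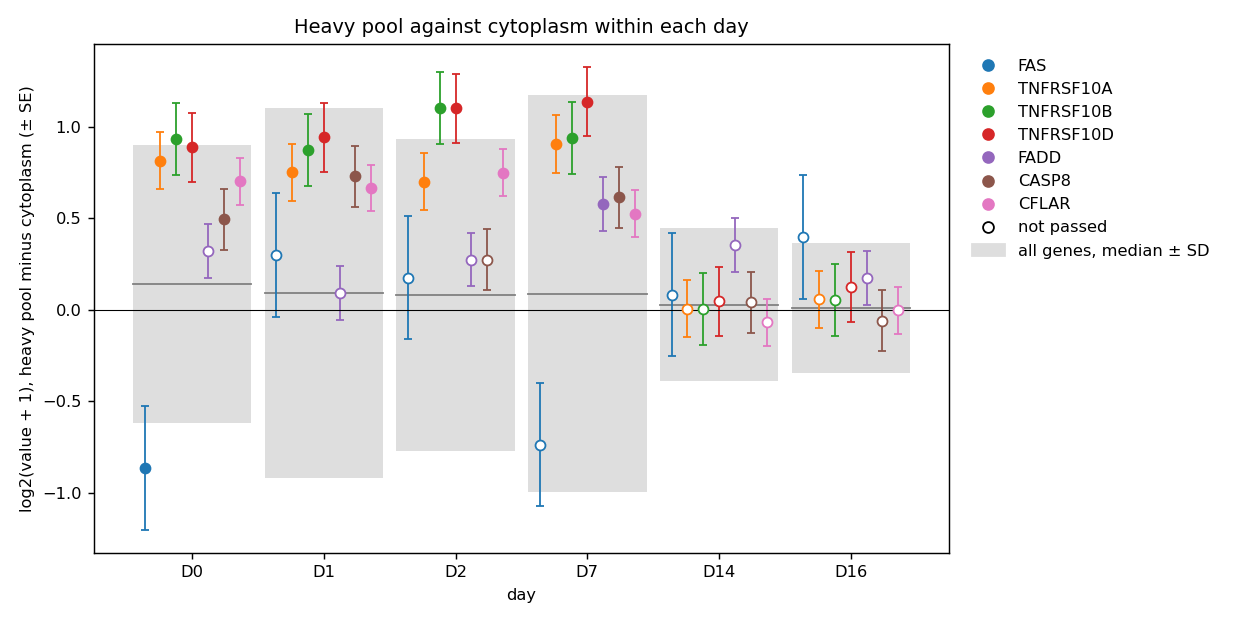
Heavy pool minus cytoplasm on the log2(value + 1) scale (y axis, ± SE) by day for each gene, with filled points called and open points not passed. Grey bars give the median ± SD over all genes, with an SD of 0.76 to 1.09 on D0 to D7 and of 0.42 and 0.36 on D14 and D16, when none of the 7 genes was called.

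The change of this difference from D0, called polysome association here, was not called for any of the 7 on D1, D2 or D7, where 4.16%, 2.06% and 3.95% of all genes changed. At an unadjusted p under 0.05 there was 1 (FAS) on D1, 1 (FAS) on D2 and 0 on D7. FAS came nearest on D1 (1.16 ± 0.48, adjusted p = 0.124). It passed there when the D14 and D16 libraries were left out of the fit (adjusted p = 0.0447) and when only the compared groups entered it (adjusted p = 0.0221). On D14, 4 genes were lower (16.7% of all genes), TNFRSF10A (-0.81 ± 0.22), TNFRSF10B (-0.93 ± 0.28), TNFRSF10D (-0.84 ± 0.27) and CFLAR (-0.77 ± 0.18). These 4 genes were lower on D16 as well (17.9%), by 0.71 to 0.88, and FAS was higher (1.26 ± 0.48, adjusted p = 0.0448, 11.6% of all genes). These values rest on the days on which 1.68% and 1.353% of genes differed over 2-fold between the fractions, and the part of that in them was not tested. None of the 9 calls passed under every alternative. With total-sum scaling 1 of them did, FAS on D16, and the higher genes among all called went from 40.78% to 78.64% on D14 and from 39.19% to 74.66% on D16. Without cytoplasmic library D16 B those of FAS (adjusted p = 0.198), TNFRSF10B (adjusted p = 0.0865) and TNFRSF10D (adjusted p = 0.0891) on D16 were lost.

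How the genes stood to each other within a library was described per kilobase of exon, without a test. CFLAR stood at 0.225 ± 0.021 (SD, n = 3) of CASP8 in the cytoplasm on D0, at 0.524 ± 0.086 on D1 and at 0.808 ± 0.076 on D2. It was lower again at 0.366 ± 0.022 on D7, 0.315 ± 0.032 on D14 and 0.322 ± 0.044 on D16, with every library of these days above every D0 library. In the heavy pool the ratio went from 0.260 ± 0.016 on D0 to 0.506 ± 0.125 on D1 and 1.12 ± 0.03 on D2, and stood between 0.293 and 0.350 from D7 on. The 3 libraries of D2 (0.744 to 0.892 in the cytoplasm, 1.09 to 1.14 in the heavy pool) were above those of every other day in each fraction. The scale of this ratio depends on the length used. The annotated CFLAR exons cover 22529 bp and those of CASP8 7243 bp, and with the longest coding transcripts (14672 and 2930 bp) the heavy pool ratio on D2 was 0.696.

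The ratio of the decoy to TNFRSF10B varied by day. Per kilobase of exon, TNFRSF10D stood at 0.812 ± 0.082 of TNFRSF10B in the cytoplasm on D0, 0.442 ± 0.039 on D1, 0.677 ± 0.056 on D2 and 0.908 ± 0.074 on D7. The heavy pool gave 0.783 ± 0.025, 0.465 ± 0.052, 0.676 ± 0.045 and 1.04 ± 0.06 on these days. In both fractions the D1 libraries lay below all those of D0, D2 and D7. On D14 and D16 the ratio was between 0.511 and 0.547 in both fractions. TNFRSF10A stood at 0.884 ± 0.085 of TNFRSF10B in the cytoplasm on D0 and 0.618 ± 0.068 on D2, and in the heavy pool at 0.817 and 0.465.

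**Figure D4:**
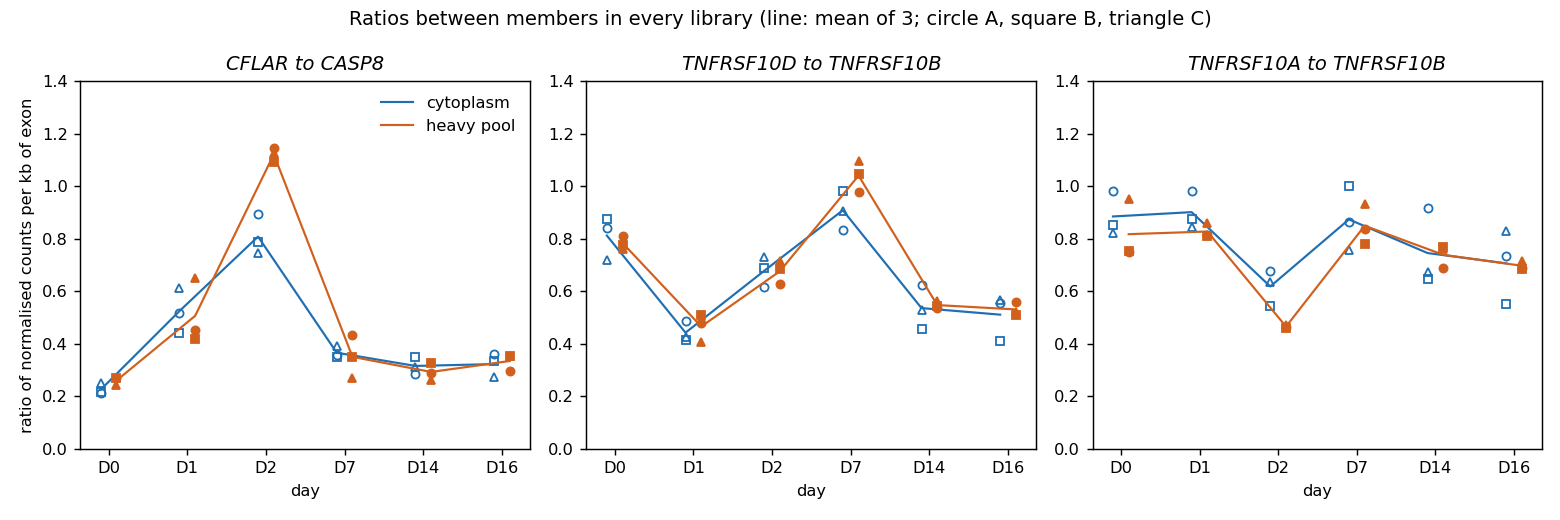
Ratio of normalised counts per kilobase of exon between pairs of genes (y axis) by day, with symbols for single libraries and lines for means of 3, in the cytoplasm (blue, open) and the heavy pool (orange, filled). CFLAR to CASP8 peaked on D2 at 0.808 in the cytoplasm and 1.12 in the heavy pool. By mean, TNFRSF10D to TNFRSF10B was lowest on D1 and highest on D7. In the cytoplasm its D1 libraries overlapped those of D14 and D16, and its D7 libraries those of D0.

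Per kilobase of exon, the level of FADD was the highest of the 7 in the cytoplasm on D0 (881.5 ± 62.9) and that of CFLAR the lowest (27.57 ± 2.03). TNFRSF10B (406.0 ± 67.8), TNFRSF10A (355.7 ± 32.1) and TNFRSF10D (326.4 ± 32.1) followed FADD within each other's spread, then CASP8 (123.1 ± 13.4) and FAS (77.93 ± 12.02). By D2 the order in the cytoplasm was TNFRSF10B (1429 ± 367), TNFRSF10D (978.2 ± 301.5), TNFRSF10A (867.6 ± 149.9), FADD (781.9 ± 134.7), FAS (416.4 ± 101.7), CASP8 (73.0 ± 11.1) and CFLAR (58.5 ± 3.8). Neighbours from TNFRSF10B to FADD stood within their spread there. The heavy pool on D2 put TNFRSF10B at 3000 ± 46, TNFRSF10D at 2030 ± 160 and TNFRSF10A at 1396 ± 40 per kilobase, each apart from the next, and CFLAR (98.3 ± 2.1) above CASP8 (87.7 ± 1.8). With the length of the longest coding transcript instead, the order of the 7 was the same in 5 of 12 groups, and CFLAR was the lowest in all 12.

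Across the 12 group means the receptors and CFLAR varied together. Pearson's r of log2 values was 0.96 between TNFRSF10A and TNFRSF10B, 0.90 between TNFRSF10B and TNFRSF10D and 0.92 between TNFRSF10B and CFLAR. FAS stood further off, with r between 0.62 and 0.74 to these 4. CASP8 had r of -0.48 with FAS and 0.66 with FADD. These are descriptions over groups that share libraries' preparation and D0, with no test. Among 11345 protein-coding genes, the pattern nearest to FAS was that of DRAM1 (r = 0.97), followed by ELAPOR1 and STK17A. TNFRSF10A was nearest to EPN3, SLC35E4 and DCP1B (r = 0.98 each), and TNFRSF10B to PTPRU, ARHGAP23 and PTPRE (r = 0.97 to 0.98). For TNFRSF10D they were NF2, ZHX3 and RAB3B (r = 0.96 to 0.98), and for CFLAR they were SUSD6, ARVCF and PI4K2A (r = 0.96 to 0.97). CASP8 was nearest to EFL1, MCIDAS and SCFD2 (r = 0.94 to 0.97) and FADD to MAT2B, RAB2A and NUB1 (r = 0.87 to 0.89).

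Of 59 other genes of the pathway, 45 were listed and tested. Of the ligands only TNFSF12 was listed, 1 of 7, and FASLG and TNFSF10 were not analysed here. Over the 45 on D2, the cytoplasm had 9 higher and 3 lower (median 0.13), beside 14.2% and 10.6% of all genes. The heavy pool had 18 higher and 12 lower (median 0.15), beside 30.4% and 34.5%. On D14 in the heavy pool 17 were higher and 21 lower (median -0.16), beside 34.4% and 37.6% of all genes.

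Among the 8 other receptors and decoys, 3 rose and 0 fell in the cytoplasm on D2 (14.2% and 10.6% of all genes), and 5 rose and 0 fell in the heavy pool (30.4% and 34.5%). TNFRSF10C, the other decoy for TRAIL, which lacks a death domain altogether, rose most, from 21.03 ± 6.78 (SD) to 359.7 ± 25.8 in the cytoplasm (4.08 ± 0.37, adjusted p = 4.04e-07) and from 30.6 ± 10.6 to 656.6 ± 44.5 in the heavy pool (4.43 ± 0.19, adjusted p = 5.22e-15). NGFR, the low-affinity neurotrophin receptor, which also has a death domain, rose from 350.8 to 2174 in the cytoplasm (2.57 ± 0.37) and fell below its D0 level on D7 (-1.71 ± 0.37, adjusted p = 0.00227). TNFRSF1A, the main TNF receptor, did not pass on D2 (0.02 ± 0.28) and fell on D7 in the cytoplasm (-1.37 ± 0.28) and the heavy pool (-1.01 ± 0.09).

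Of the 21 adapters and regulators, 4 rose and 2 fell in the cytoplasm on D2, and 7 rose and 6 fell in the heavy pool, beside the same shares of all genes (14.2%, 10.6%, 30.4% and 34.5%). BIRC3, a ubiquitin ligase at TNF receptor complexes and an NF-kB target, rose from 58.8 ± 7.0 to 742.4 ± 102.2 in the heavy pool (3.63 ± 0.17, adjusted p = 1.73e-14). Its cytoplasmic libraries of D2 ranged from 202.5 to 833.4. TNFAIP3, which removes ubiquitin chains there, rose by 1.92 ± 0.16 in the heavy pool on D2, and TRAF2, a signalling adapter of TNF receptors, fell by 1.60 ± 0.10. TRAF5 fell in the cytoplasm on D7 (-1.67 ± 0.39). CASP10, the close relative of CASP8, rose on every day in both fractions, while CASP8 itself rose on none with the authors' size factors. The cytoplasmic mean of CASP10 went from 51.6 ± 14.7 on D0 to 163.2 ± 24.2 on D2 and 260.5 ± 41.8 on D16 (2.34 ± 0.30, adjusted p = 5.08e-05). With total-sum scaling CASP8 rose in the heavy pool on D7 (0.40, adjusted p = 0.0184), and CASP10 was not examined under that scaling.

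Of the 14 effectors, 2 rose (14.2% of all genes) and 1 fell (10.6%) in the cytoplasm on D2, and 6 rose (30.4%) and 4 fell (34.5%) in the heavy pool. On D14 in the heavy pool all 14 were called, 4 higher and 10 lower, beside 34.4% and 37.6% of all genes. BID, which caspase-8 cuts, rose on D7 in the cytoplasm (1.18 ± 0.23) and the heavy pool (1.04 ± 0.08). XIAP, an inhibitor of caspases, rose in the heavy pool on D2 (0.34 ± 0.11) and fell on D7 (-0.32 ± 0.11) and D14 (-0.94 ± 0.11). APAF1, the apoptosome scaffold, rose in the heavy pool on D2 (0.71 ± 0.15) and fell on D14 (-1.43 ± 0.15). MLKL, 1 of the 2 necroptosis genes and the only one listed, fell in the heavy pool on D2 (-0.66) and D14 (-0.52).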

How the data were processed

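Each library was deposited by the authors as normalised counts, a signal of whole reads per gene divided by 1 size factor per library. Per the submitters' processing notes, the tools were FastQC 0.11.9, cutadapt 3.2, STAR 2.7.9a, featureCounts (Subread 2.0.1) and DESeq2 1.30.1, with the genome GRCh38. Emetine held ribosomes in place, nuclei and mitochondria were spun out, and a strand-marking kit with poly(A) selection was used, per the labels' protocols. The strand setting of the counting is not given in the sources used here. The table lists 15891 genes in 54 columns. Of these, 36 columns belong to the labelled samples and 18 were not used. All genes were above 1 in each of the 36 columns (smallest value 1.004).

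Values were tested as log2(value + 1) with limma 3.58.1 (R 4.3.3, trend in the prior variance) on genes at 10 or more in at least 3 libraries of a fraction, 15889 in the cytoplasm and 15852 in the heavy pool. Days were compared in a fit of the 18 libraries of a fraction, and association as an interaction in a fit of all 36. Benjamini-Hochberg adjustment ran over all genes, and a gene was called under 0.05. The scripts were tested on simulated data. Library totals were recovered from the size of 1 read within a tolerance of 0.01 and describe depth only. Counting error was not added to the standard errors.

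The letters are labelled as batches and so pair the libraries, but the fit has no block for them. As a check, the deviations of same-letter libraries from their group means were correlated. Among cytoplasmic libraries the mean r between days was 0.19, with 27 of 45 pairs above 0.1 and the highest at 0.85. Among heavy pool libraries the mean was 0.07 (20 of 45, highest 0.33), and for the fractions of 1 day it was -0.0009 (5 of 18, highest 0.37). Some same-letter libraries of different days thus shared their deviations, and the fit treats them as independent.

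The 7 genes, the pathway list and the marker lists were chosen with earlier results of these data known. Pathway genes were named as the 6 per fraction whose called change from D0 was largest, if all 3 letters moved 1 way and either group averaged 100 or more, with CASP10, BID and XIAP named in any case. Some items are not reported here. TNFRSF1A, MLKL and TNFSF12 were named after their values were seen. Similar patterns were ranked by Pearson's r over the 12 group means. Gene coordinates are from GENCODE 29 and promoter sequences from RefSeq. Alternatives were other pseudocounts (0.5 and 10), no filter, the compared groups alone, total-sum scaling, a letter block, and leaving out letters or single libraries. Calls of single pathway genes were not followed through these alternatives.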

Additional observations from a re-analysis of the deposited data

Results flagged for a closer look

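In 9 cases the change from D0 differed between the heavy pool and the cytoplasm by an interaction test (limma, adjusted p under 0.05), with 3 libraries in each group. FAS was higher in the heavy pool relative to the cytoplasm on D16, by 1.264 (log2). TNFRSF10A was lower by this measure on D14 (-0.8094) and D16 (-0.7598), TNFRSF10B on D14 (-0.9326) and D16 (-0.8806), TNFRSF10D on D14 (-0.8434) and D16 (-0.7646), and CFLAR on D14 (-0.7718) and D16 (-0.7066). All 9 lie on the days when 1.68% (D14) and 1.353% (D16) of genes differed over 2-fold between the fractions, against 18.22% to 33.81% on the other days, and the part of that in these values was not tested.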

How the results depend on the processing

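Pseudocounts of 0.5 and 10 and no filter on low values changed none of the 203 results. With the letter as a replicate block the calls against D0 numbered 13 (cytoplasm), 27 (heavy pool) and 9 (association), as without it, and no call changed other than the 2 given above (TNFRSF10B from D1 to D2 and FADD on D0). Leaving out a letter gave 8 to 11 calls in the cytoplasm (13 with all) and 2 to 3 for association (9 with all), where fewer libraries entered the fit. Total-sum scaling gave 2 association calls. It moved the all-gene median in the cytoplasm to -0.26 on D1, -0.11 on D2, -0.32 on D7, 0.12 on D14 and 0.16 on D16, and in the heavy pool to 0.13, 0.35, 0.18, 0.30 and 0.44. Against these, FADD in the heavy pool turned to 0.15 on D2, 0.30 on D14 and 0.16 on D16, and CFLAR on D16 to 0.28, each below its day's median. Without the D14 and D16 libraries, an alternative chosen after seeing the data like the single libraries, association on D1, D2 and D7 had 1 call (0 with them). The order of levels per kilobase held in 5 of 12 groups with the longest coding transcript. Calls against D0 that held under every alternative numbered 7 of 13 (cytoplasm), 19 of 27 (heavy pool) and 0 of 9 (association). Such calls numbered 15 of 21 for the heavy pool against the cytoplasm and 17 of 25 for the steps between days. The all-gene counts of calls moved by over 1.5 times in 11, 14 and 17 of 31 comparisons without letter A, B or C and in 6 of 31 with total-sum scaling. The edgeR and DESeq2 alternatives were not run. All libraries come from 1 cell line with no later untreated culture. The lowest value of the 7 genes was 160 normalised counts, and what depth limits was not compared with the spread between libraries.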
